A study of Mus musculus with 12 samples.

Results

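Immediate early genes are the first genes a cell switches on after a stimulus, and they need no new protein synthesis for it. Growth factors, cytokines and stress act through kinases and through transcription factors already in the cell, such as SRF with its ELK partners and CREB, on promoters that are ready to fire. Many of the products are transcription factors of short life that pass the signal to later genes, and others are inhibitors that end it. In the liver these genes are known from regeneration after partial hepatectomy, from acute injury and from feeding, and their transcripts can also climb within minutes when tissue is cut out.

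The 10 genes described here are Fos, Fosb, Jun, Junb, Egr1, Ier2, Ier3, Btg2, Dusp1 and Klf10, taken by gene symbol from the 55401 genes of the deposited count table. Each symbol matched 1 gene. All 10 passed the filter on low counts, among 15982 genes that were tested.

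RNA was sequenced from the livers of male C57BL/6 mice in 4 groups of 3 libraries each, 12 in all. LKO-HFHS mice carried LPCAT3flox/flox-cre and were fed the HFHS diet for 16 weeks. LKO-NC mice carried LPCAT3flox/flox-cre and were controls. FLOX-HFHS mice carried LPCAT3flox/flox without the cre and were fed the HFHS diet for 16 weeks, and FLOX-NC mice carried LPCAT3flox/flox and were controls. All 12 thus carried the floxed alleles, and no wild-type mouse was in the design. Lpcat3 encodes an enzyme that places polyunsaturated fatty acids into phospholipids. The labels do not name the promoter that drives the cre, they give the sugar of the diet as sucrose in 1 place and as fructose in another, and they give every mouse an age of 8 to 10 weeks, which is shorter than the feeding. Separate animals within a group are not stated, and p-values then measure only how far these libraries spread, possibly for technical reasons.

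The libraries held 34951150 to 59205759 counts each, of which ribosomal RNA took 5.81% to 32.7%. CPM below is the count rate of a gene after TMM scaling of the libraries, and FPKM is the authors' deposited level per length. Liver identity was clear, since the 10 hepatocyte markers summed to at least 45040 CPM in every library and the 4 adipocyte markers to at most 0.143 CPM. Lpcat3 had 25.0, 25.9 and 29.4 CPM in LKO-HFHS livers, against 72.6, 80.6 and 75.7 CPM in FLOX-HFHS livers. It had 25.4, 65.0 and 19.4 CPM in LKO-NC livers, against 49.7, 49.9 and 61.9 CPM in FLOX-NC livers. The library labelled LKO-NC replicate 2 thus goes against its label. LKO-NC replicate 3 stands apart in most of the genes described here. The 4 libraries numbered 1 lay together on the first within-group component, at scores of -87.6 to -50.6, against 7.84 to 79.7 for the other 8. For the 10 genes, values without 1 or more of these libraries are given beside the main results.

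The promoters of Fos, Junb, Btg2 and Dusp1 are shown because these genes carry the contrasts below. Junb, Fos and Btg2 were highest in the same library, LKO-NC replicate 3, while Dusp1 was not. RefSeq promoters of build GRCm38.p6 matched 7 of the 10 genes. They run from 250 bases before to 50 after the RefSeq start of the gene, read 5′ to 3′ on its own strand. Capitals mark TGACG or its reverse complement, the core of the cAMP response element that CREB binds. The regions are chr12:85473640-85473939 (plus strand) for Fos, chr8:84978699-84978998 (minus) for Junb, chr1:134079106-134079405 (minus) for Btg2 and chr17:26508423-26508722 (minus) for Dusp1.
Fos promoter: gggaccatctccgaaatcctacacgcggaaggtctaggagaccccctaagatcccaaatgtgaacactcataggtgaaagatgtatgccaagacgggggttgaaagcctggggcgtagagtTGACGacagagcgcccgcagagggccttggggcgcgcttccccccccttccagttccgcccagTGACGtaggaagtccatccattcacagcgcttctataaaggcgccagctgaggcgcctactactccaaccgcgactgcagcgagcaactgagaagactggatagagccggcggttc
Junb promoter: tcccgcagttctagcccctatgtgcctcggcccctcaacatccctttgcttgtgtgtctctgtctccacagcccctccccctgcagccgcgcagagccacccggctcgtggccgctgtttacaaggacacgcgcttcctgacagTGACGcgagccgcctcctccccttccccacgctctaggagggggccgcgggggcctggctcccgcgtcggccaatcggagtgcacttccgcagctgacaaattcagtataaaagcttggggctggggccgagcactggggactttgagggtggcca
Btg2 promoter: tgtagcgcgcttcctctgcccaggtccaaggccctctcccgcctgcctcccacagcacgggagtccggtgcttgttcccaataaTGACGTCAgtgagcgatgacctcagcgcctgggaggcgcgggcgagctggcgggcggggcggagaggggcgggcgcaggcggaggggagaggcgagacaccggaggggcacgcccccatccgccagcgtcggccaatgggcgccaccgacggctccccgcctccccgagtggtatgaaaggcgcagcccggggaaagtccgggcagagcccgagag
Dusp1 promoter: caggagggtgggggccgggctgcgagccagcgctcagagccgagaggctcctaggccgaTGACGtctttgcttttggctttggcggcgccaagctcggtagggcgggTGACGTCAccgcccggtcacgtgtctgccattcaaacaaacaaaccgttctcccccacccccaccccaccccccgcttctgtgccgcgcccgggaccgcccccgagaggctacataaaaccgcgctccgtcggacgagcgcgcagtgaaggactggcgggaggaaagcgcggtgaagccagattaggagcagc

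TGACG on either strand was found in 5 of the 7 matched promoters (Fos, Fosb, Junb, Btg2 and Dusp1) and in 20.8% of 32851 promoters of the same length. The full palindrome TGACGTCA, which holds TGACG on both strands, was found in Btg2 and Dusp1 and in 1.79% of all promoters. The EGR site GCGNGGGCG was found in Fosb and Btg2 and in 5.55% of all. TATAAA was found in Fos and Junb and in 13.6% of all. GGGCGG was found in 6 of the 7 and in 35.7% of all. The AP-1 site TGANTCA (7.81% of all promoters) and the CArG box of SRF (1.63%) had no match in these 7 windows. Sequence outside the windows was not searched, and neither were Egr1, Ier2 and Klf10, for which no promoter was matched. Both strands were searched, and a match is only a match of letters. The promoters of Btg2 and Dusp1 thus share the full element. Whether it bears on the levels of these 2 genes was not tested.

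The genes are compact. Of the 10, 9 span less than 10000 bases, as do 24.1% of the 13502 protein-coding genes tested. The exception is Dusp1, listed with a span of 56539 bases, from 26505590 to 26562128 on the minus strand. The Dusp1 promoter window shown above lies inside this listed span, not at its start. Levels per length, as the median FPKM over the 12 libraries, were highest for Klf10 (12.2 FPKM), followed by Ier2 (9.07), Dusp1 (8.66), Junb (7.80) and Jun (5.34). Btg2 (1.19 FPKM), Egr1 (1.10), Ier3 (0.885), Fos (0.620) and Fosb (0.0792) were low. The libraries differed most for Egr1, whose highest FPKM (50.1) was 81.0 times its lowest (0.618), and for Fos (59.4 times) and Btg2 (57.1 times). Dusp1 ranged least, from 4.28 to 20.7 FPKM, a ratio of 4.83. Fosb, at 0 to 0.194 FPKM, was at 0 in 4 libraries and gave no usable ratio. Ranges of neighbours in this order overlapped over the libraries, so the order describes medians.

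**Figure D1:**
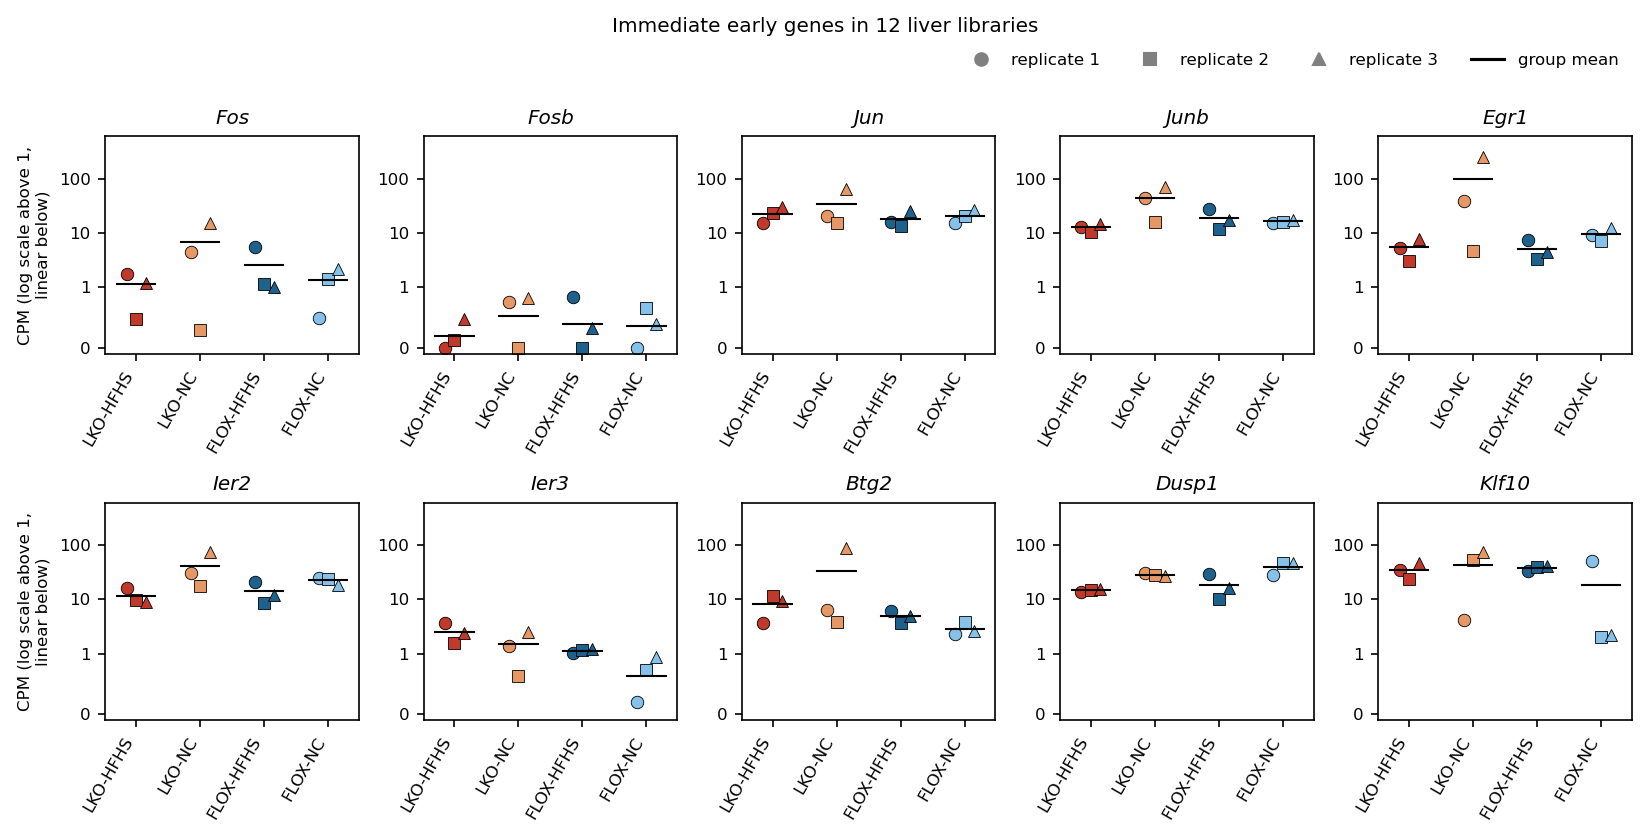
CPM of the 10 immediate early genes in each of 12 liver libraries (y axis logarithmic above 1 CPM and linear below), by group, with replicates as symbols and the group mean as a line. LKO-NC replicate 3 (triangle in the LKO-NC column) is the highest library for 7 of the 10 genes, at 252 CPM for Egr1, whereas Dusp1 is lower in most HFHS libraries than in the NC libraries.

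Across both genotypes, 3 of the 10 genes were lower in HFHS livers than in NC livers and none was higher (edgeR quasi-likelihood test, Benjamini-Hochberg adjusted p under 0.05). They were Dusp1, Ier2 and Egr1. This comparison averages the diet effect of the genotypes and called 11.1% of all tested genes, 4.94% as lower. The median log2 fold change of the 10 genes was -0.70, against 0.02 over all tested genes. Of the 10, 4 had an unadjusted p under 0.05, as had 26.5% of all tested genes, and DESeq2 called the same 3, with 16.1% of its tested genes called. Of the 3, Dusp1 stayed past the threshold without LKO-NC replicate 3, and Ier2 (adjusted p = 0.0509) and Egr1 (adjusted p = 0.0661) did not in the same edgeR test. Without LKO-NC replicate 2 all 3 passed, and so did Junb (adjusted p = 0.0205). Without the 4 libraries numbered 1, 2 genes passed, namely Dusp1 as lower and Klf10 as higher on HFHS.

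Dusp1 (ENSMUSG00000024190) encodes a phosphatase that switches off MAP kinases in the nucleus and so ends the signal that induces the other genes. In knockout livers it had 13.8, 15.1 and 15.6 CPM on HFHS, against 30.1, 28.1 and 26.3 CPM on NC. In floxed livers it had 29.3, 10.1 and 16.5 CPM on HFHS, against 27.7, 45.9 and 46.0 CPM on NC. In CPM the knockout groups did not overlap, while in floxed livers the HFHS library numbered 1 lay above the NC library numbered 1. By FPKM these 2 floxed libraries had 8.28 and 8.68, in the other order. The log2 fold change over both genotypes was -1.01 ± 0.23 (SE, adjusted p = 0.0130, edgeR). The mean was 16.7 CPM in 6 HFHS libraries and 34.0 CPM in 6 NC libraries. Neither genotype alone passed the threshold, at -0.92 ± 0.32 in knockout livers (adjusted p = 0.141) and -1.10 ± 0.32 in floxed livers (adjusted p = 0.0935). The 2 effects differed by 0.18 ± 0.45 on the log2 scale (adjusted p of the interaction 0.981).

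The Dusp1 difference was past the threshold in 23 of 24 other fits on counts, with log2 fold changes of -1.37 to -0.86. The exception was the fit without both LKO-NC replicates 2 and 3, where it was -1.06 (adjusted p = 0.0634, edgeR). Without the 4 libraries numbered 1 it was -1.30 (adjusted p = 0.00127), and adjusted for the share of ribosomal RNA -0.90 (adjusted p = 0.0265). Transcript ENSMUST00000025025 held 20.4% to 98.0% of the gene's estimated counts, and most of the rest lay in ENSMUST00000126178. At its far end the listed span of Dusp1 overlaps Ergic1 on the other strand by 640 bases, and whether strand was used in counting is not given.

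**Figure D2:**
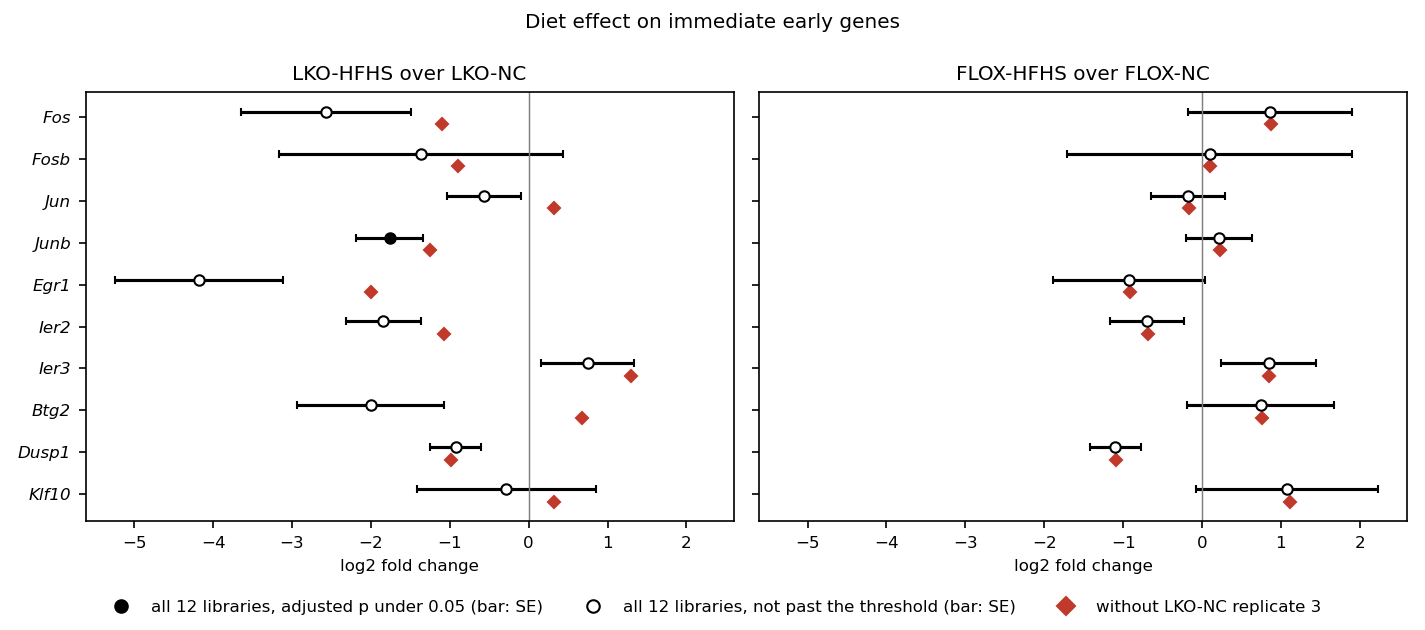
Log2 fold change (x axis) of each gene on HFHS over NC, for knockout livers (left panel) and floxed livers (right panel). Circles with SE bars use all 12 libraries and are filled past an adjusted p of 0.05; diamonds leave out LKO-NC replicate 3. In knockout livers Btg2 lies at -2.0 with all libraries and at 0.68 without that one, while Dusp1 stays near -1.

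Ier2, a nuclear protein of the immediate early class, had 16.0, 9.53 and 9.0 CPM in LKO-HFHS livers, against 30.3, 17.5 and 75.8 CPM in LKO-NC livers. It had 21.0, 8.68 and 12.2 CPM in FLOX-HFHS livers, against 25.0, 24.1 and 18.5 CPM in FLOX-NC livers. In CPM the knockout groups did not overlap, and the floxed groups overlapped through FLOX-HFHS replicate 1. By FPKM that library had 7.41, against at least 9.97 in FLOX-NC livers. Over both genotypes Ier2 differed by -1.27 ± 0.33 (SE; adjusted p = 0.0276, edgeR), by -0.88 without LKO-NC replicate 3 and by -1.67 without the libraries numbered 1 (adjusted p = 0.0539). In the 24 other fits on counts it was lower on HFHS every time and past the threshold in 15. Without LKO-NC replicate 3, FLOX-NC replicate 2, or replicate 2 or 3 of either HFHS group, it did not pass.

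Egr1 encodes a zinc-finger transcription factor that responds to growth factors. It had 5.35, 3.05 and 7.90 CPM in LKO-HFHS livers, against 38.2, 4.67 and 252 CPM in LKO-NC livers. It had 7.46, 3.28 and 4.49 CPM in FLOX-HFHS livers, against 9.06, 7.26 and 12.4 CPM in FLOX-NC livers. The spread within LKO-NC, from 4.67 to 252 CPM, was wider than any difference between the other groups. The difference over both genotypes was -2.55 ± 0.71 (SE; adjusted p = 0.0399, edgeR) and was past the threshold in 6 of 24 other fits on counts. With 1 library left out, it passed when that library was LKO-NC replicate 2 and in no other case. Without LKO-NC replicate 3 it was -1.45, and without the libraries numbered 1 -2.93 (adjusted p = 0.211). Blocking on the replicate number gave -2.19 (adjusted p = 0.0897, edgeR).

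Markers of other cell types moved with the diet as well. Over both genotypes 7 of 10 hepatocyte markers were lower on HFHS (edgeR, adjusted p under 0.05), where 11.1% of all tested genes were called. Higher were 8 of 10 Kupffer cell and macrophage markers, 5 of 7 of monocyte-derived macrophages and 6 of 8 of stellate cells and fibroblasts. So were 1 of 8 endothelial and 2 of 5 cholangiocyte markers, while 1 of 6 red cell markers and the 1 pancreas marker tested were lower. No neutrophil, B cell, or T and NK cell marker was called. Hepatocyte markers summed to 45040 to 59301 CPM in HFHS livers and 52762 to 105125 CPM in NC livers. Kupffer cell and macrophage markers summed to 156 to 308 CPM in HFHS livers and 61.2 to 119 CPM in NC livers. Stellate cell and fibroblast markers summed to 222 to 387 CPM in HFHS livers and 57.7 to 206 CPM in NC livers. In whole liver, fewer cells of a type and less RNA per cell cannot be told apart. The part of cell makeup in the values of Dusp1, Ier2 and Egr1 was not tested.

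In knockout livers alone, 1 of the 10 genes passed the threshold between the diets. This was Junb, which was lower on HFHS, where 3.75% of all tested genes were called, 1.5% as lower. Junb encodes a JUN protein that pairs with FOS proteins in AP-1 and activates some targets less than JUN does. It had 13.0, 10.7 and 14.5 CPM in LKO-HFHS livers, against 43.8, 16.3 and 69.6 CPM in LKO-NC livers. In CPM the groups did not overlap, but LKO-NC replicate 2 came close to the highest HFHS library. By FPKM they overlapped, at up to 9.57 in LKO-HFHS livers and down to 7.53 in LKO-NC livers. The log2 fold change was -1.76 ± 0.43 (SE; adjusted p = 0.0391, edgeR). Without LKO-NC replicate 3 it was -1.25 (adjusted p = 0.129), and without the libraries numbered 1 -1.77 (adjusted p = 0.209). Blocking on the replicate number gave -1.63 (adjusted p = 0.0192, edgeR). It was past the threshold in 12 of 25 other fits on counts and negative in all 25. It did not pass without LKO-NC replicate 1 or 3, FLOX-NC replicate 2, FLOX-HFHS replicate 3 or any 1 of the LKO-HFHS libraries.

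Egr1 and Ier2 lay just outside the threshold in the same comparison, at -4.18 ± 1.07 (adjusted p = 0.0564, edgeR) and -1.84 ± 0.48 (adjusted p = 0.0529, edgeR). Of the 10 genes, 5 had an unadjusted p under 0.05, as had 18.1% of all tested genes. DESeq2 called Egr1, Ier2 and Junb, and 8.79% of its tested genes. Of the 10, 9 had a negative fold change and the median was -1.56, against 0.05 over all tested genes. Without LKO-NC replicate 3 the median was -0.94, with 6 negative and none past the threshold. Without LKO-NC replicate 2, the library whose Lpcat3 level goes against its label, 3 genes passed, namely Egr1 (adjusted p = 0.00788, edgeR), Junb (adjusted p = 0.00921) and Ier2 (adjusted p = 0.0277). In CPM, Junb, Ier2 and Dusp1 were lower in every LKO-HFHS library than in any LKO-NC library, as were 13.0% of all tested genes.

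In floxed livers, none of the 10 genes passed the threshold between the diets in edgeR, where 2.9% of all tested genes did. Dusp1 alone had an unadjusted p under 0.05, as had 17.7% of all tested genes, and DESeq2 called Dusp1 and 7.3% of its tested genes. In CPM Ier3 was higher in every FLOX-HFHS library than in any FLOX-NC library, as were 10.6% of all tested genes. By FPKM its groups overlapped, with FLOX-HFHS replicate 1 at 0.467 and FLOX-NC at up to 0.721. The median log2 fold change was 0.16, with 6 genes positive and 4 negative, against -0.01 over all tested genes. Junb had 27.8, 12 and 17.3 CPM in FLOX-HFHS livers, against 15.6, 15.9 and 17.4 CPM in FLOX-NC livers, a log2 fold change of 0.22 ± 0.42 (adjusted p = 0.847, edgeR). The groups overlapped, with the widest spread on HFHS.

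The diet effect was not shown to differ between the genotypes for any of the 10 genes (interaction, 0 called by edgeR and 0 by DESeq2). In edgeR 0.0% of all tested genes were called, in DESeq2 0.155%, and 4.89% had an unadjusted p under 0.05. Of the 10 genes, 3 had an unadjusted p under 0.05 in edgeR, against 1 when LKO-NC replicate 3 was left out and 5 when LKO-NC replicate 2 was. The median difference was -1.41 with all libraries and -0.60 and -1.77 in the same fits. The nearest was Junb, with a difference of -1.98 ± 0.59 on the log2 scale (adjusted p = 0.955, edgeR).

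Between the genotypes, no gene of the 10 was called on either diet, and neither was any other gene by edgeR (0.0% of 15982). On NC, 3 of the 10 had an unadjusted p under 0.05, as had 7.06% of all tested genes, and DESeq2 called 72 genes (0.4%) and none of the 10. On HFHS, 0 of the 10 and 3.25% of all tested genes had an unadjusted p under 0.05, and DESeq2 called 32 genes (0.168%) and none of the 10. The median log2 fold change of LKO over FLOX was 1.26 on NC, with 9 genes positive, and -0.19 on HFHS, with 4 positive. On NC the median was 0.70 without LKO-NC replicate 3, with 1 gene at an unadjusted p under 0.05, and 1.43 without LKO-NC replicate 2, with 7 such genes. Averaged over the diets, 0 of the 10 were called and 3 had an unadjusted p under 0.05 (Btg2, Ier3 and Egr1), against 5.64% of all tested genes, and DESeq2 called 61 genes (0.348%) and none of the 10. The number of the 10 at an unadjusted p under 0.05 was 1 when LKO-NC replicate 3 was left out and 5 when LKO-NC replicate 2 was.

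Btg2, an antiproliferative protein that p53 also induces, showed how far 1 library could carry a mean. It had 6.36, 3.89 and 88.7 CPM in LKO-NC livers, against 2.29, 3.81 and 2.57 CPM in FLOX-NC livers. In CPM every LKO-NC library lay above every FLOX-NC library, as for 3.98% of all tested genes. LKO-NC replicate 2 was close to FLOX-NC replicate 2, the highest FLOX-NC library. By FPKM these 2 libraries had 1.18 and 1.19, so the groups overlapped. The log2 fold change was 3.51 ± 0.997 with all libraries (adjusted p = 0.678, edgeR), 0.85 without LKO-NC replicate 3 (adjusted p = 0.938) and 4.04 when LKO-NC replicate 2 was left out (adjusted p = 0.318). On HFHS it had 3.72, 11.6 and 9.33 CPM in LKO livers, against 6.09, 3.68 and 4.86 CPM in FLOX livers.

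Fos, the partner of JUN proteins in AP-1, had 1.75, 0.480 and 1.18 CPM in LKO-HFHS livers, against 4.51, 0.289 and 15.3 CPM in LKO-NC livers. It had 5.51, 1.16 and 1.01 CPM in FLOX-HFHS livers, against 0.498, 1.45 and 2.14 CPM in FLOX-NC livers. All groups overlapped with their neighbours. The diet fold change in knockout livers was -2.57 ± 1.07 (adjusted p = 0.226, edgeR), -1.10 without LKO-NC replicate 3 and -3.13 when LKO-NC replicate 2 was left out. Fosb, a close relative of Fos, stayed below 1 CPM in every library and its groups overlapped throughout.

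Jun, the type gene of the JUN family, lay between 13.2 and 30.0 CPM in 11 libraries and at 64.8 CPM in LKO-NC replicate 3. Its diet fold change in knockout livers was -0.57 ± 0.47 (adjusted p = 0.598, edgeR) and 0.32 without that library, so its sign rested on it. Without LKO-NC replicate 2 it was -0.91. An antisense transcript, Junos, overlaps Jun by 689 bases and had 0 to 33 counts per library.

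Ier3, an immediate early protein linked to survival under stress, was the 1 gene whose highest group was LKO-HFHS. It had 3.65, 1.58 and 2.42 CPM in LKO-HFHS livers, against 1.02, 1.18 and 1.21 CPM in FLOX-HFHS livers. It had 1.40, 0.630 and 2.49 CPM in LKO-NC livers, against 0.199, 0.726 and 0.947 CPM in FLOX-NC livers. On HFHS every LKO library lay above every FLOX library, as for 5.9% of all tested genes, and on NC the genotypes overlapped. Over both diets the log2 fold change of LKO over FLOX was 1.20 ± 0.42 (adjusted p = 0.852, edgeR), which did not pass. Its total counts were low, from 6 to 170 per library.

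Klf10, a zinc-finger repressor induced by TGF-beta and under clock control in mouse liver, fell into a low and a high set of libraries that did not follow the groups. It had 35.4, 24.1 and 46.5 CPM in LKO-HFHS livers, against 4.12, 51.8 and 72.7 CPM in LKO-NC livers. It had 32.6, 39.4 and 41.3 CPM in FLOX-HFHS livers, against 49.8, 2.00 and 2.23 CPM in FLOX-NC livers. The 3 low libraries, at 2.00 to 4.12 CPM, were all NC, and the other 9 lay at 24.1 CPM or above. In the low libraries transcript ENSMUST00000074043 was listed at 0 estimated counts, and in the other 9 it held 698 to 3965 counts and at least 92.3% of the gene. The other transcripts of Klf10 summed to 91 to 156 counts in the low libraries and 12 to 115 in the rest. Of 6428 transcripts with at least 1000 counts in a library, 24.7% were listed at 0 in at least 1 other library and 14.5% in at least 3. Whether these zeros are failed estimates was not tested. The diet fold change in floxed livers was 1.08 ± 1.15 (adjusted p = 0.696, edgeR), and it was 4.17 without FLOX-NC replicate 1 (adjusted p = 0.0484).

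**Figure D3:**
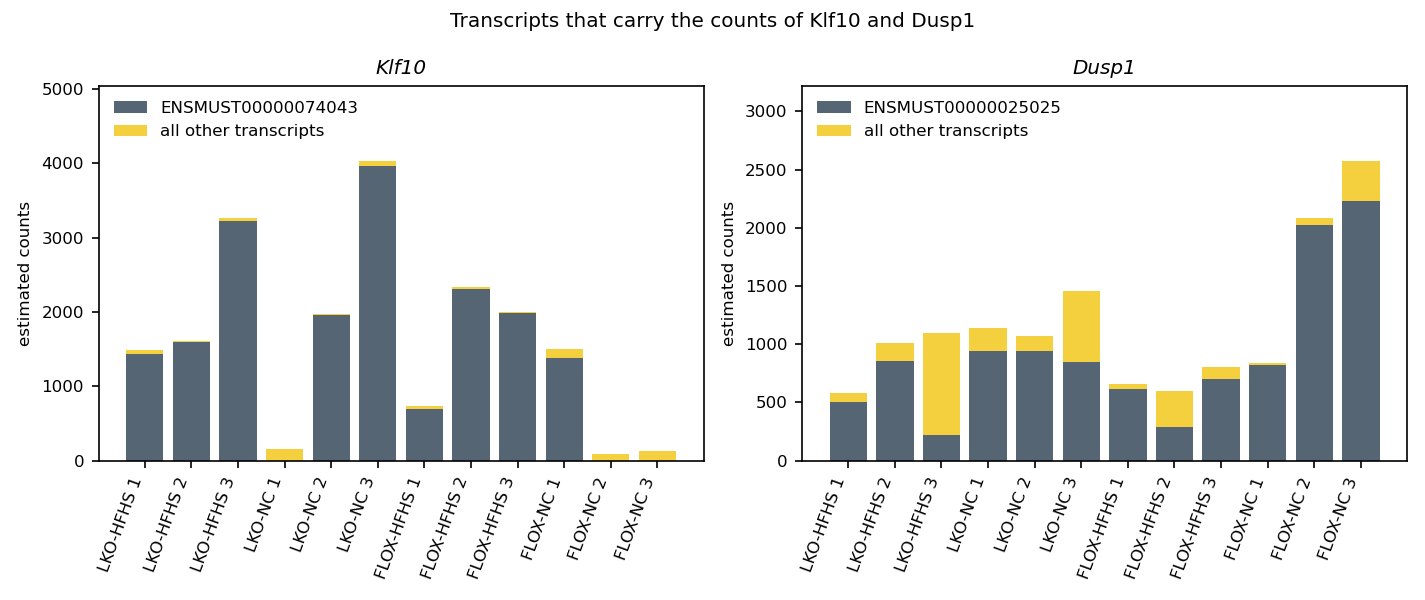
Estimated counts (y axis, not scaled for depth) of the main transcript and of all other transcripts of Klf10 and Dusp1 in each of 12 libraries. The main Klf10 transcript is listed at 0 in LKO-NC replicate 1, FLOX-NC replicate 2 and FLOX-NC replicate 3; the main Dusp1 transcript holds 20.4% to 98.0% of the gene's counts.

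LKO-NC replicate 3 was the highest of the 12 libraries for 7 of the 10 genes, whereas 7.31% of all tested genes peaked there. The library was singled out after its values had been seen, so this is a description with no test. Its level was 34.7 times the median of the other 11 libraries for Egr1, 22.8 times for Btg2 and 12.9 times for Fos. For Junb, Ier2, Jun and Klf10 the ratio was 4.38, 4.33, 3.18 and 2.06. The exceptions were Fosb and Ier3, which ranked second there, and Dusp1, which ranked 7 of 12 at 26.3 CPM and 0.948 times the median. LKO-NC replicate 1 held the next highest level of Egr1 (38.2 CPM), Junb (43.8 CPM) and Ier2 (30.3 CPM).

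Other immediate early genes peaked in the same library, 24 of 41 tested. Trib1, a pseudokinase that guides protein degradation, had 174 CPM there and at most 55.7 CPM elsewhere. Zfp36, which destabilises cytokine mRNAs, had 79.4 CPM there and at most 39.8 elsewhere. The heat shock chaperones did so too, with 11 of 12 highest there. Dnajb1, an HSP40 co-chaperone, had 358 CPM in LKO-NC replicate 3 and at most 87.4 CPM elsewhere. The median log2 ratio of this library to the other 11 was 1.89 for the 10 genes, 0.85 for the other immediate early genes and 1.36 for the heat shock genes. Of the 4 neutrophil markers tested, 3 also peaked there, and the 7 neutrophil markers summed to 11.8 CPM, against 1.94 to 8.20 CPM in the other libraries. None of the tested macrophage, endothelial, stellate, cholangiocyte, B cell, T and NK cell or red cell markers peaked there. The part of neutrophils in these values was not tested.

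**Figure D4:**
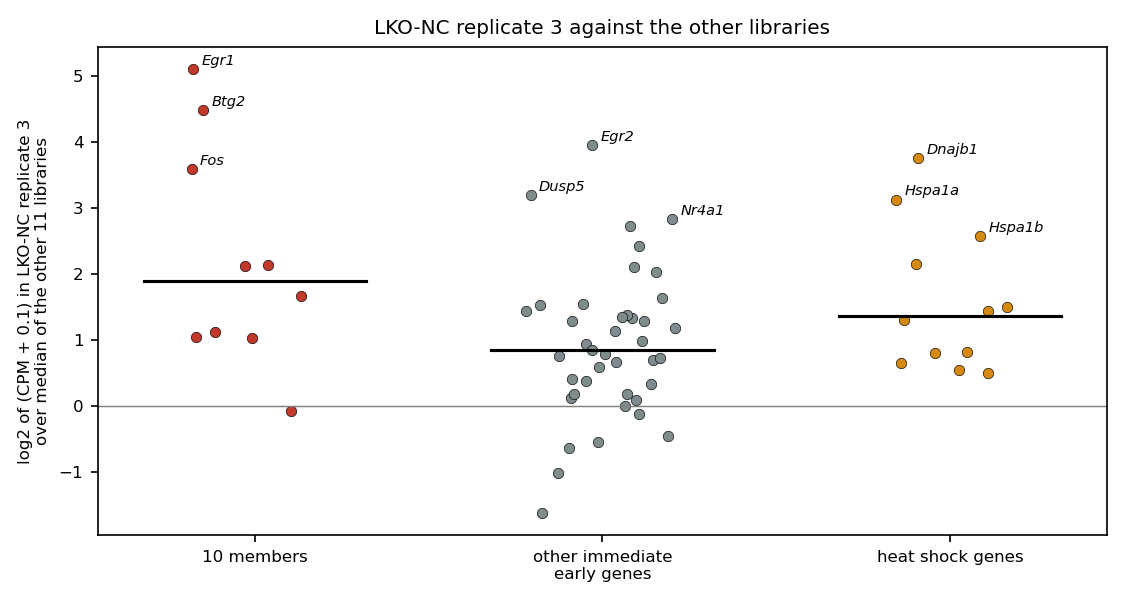
Log2 ratio (y axis) of CPM plus 0.1 in LKO-NC replicate 3 over the median CPM plus 0.1 of the other 11 libraries, with 1 point per gene and a line at the median of each list. The medians are 1.89 for the 10 genes, 0.85 for 41 other immediate early genes and 1.36 for 12 heat shock genes.

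The heat shock genes were compared between the diets as well. Hspa1b, the inducible HSP70, had 23.3, 16.0 and 29.0 CPM in LKO-HFHS livers, against 96.7, 82.3 and 144 CPM in LKO-NC livers, a log2 fold change of -2.24 ± 0.30 (adjusted p = 0.00191, edgeR). In floxed livers Hspa1b had 20.7, 24.1 and 19.9 CPM on HFHS, against 33.4, 30.0 and 18.1 CPM on NC. In knockout livers 4 of 12 heat shock genes were lower on HFHS (Hspa1b, Hspa1a, Bag3 and Dnajb1), where 1.5% of all tested genes were called lower. For these 4 genes every LKO-NC library lay above every other library, and for the other 8 this was not so. The 4 were taken by their call between LKO-HFHS and LKO-NC, so high LKO-NC levels are partly built into this choice. The share of all tested genes with this pattern was not computed. In floxed livers 0 of the 12 were called in edgeR, where 2.9% of all tested genes were, and 2 had an unadjusted p under 0.05, as had 17.7% of all tested genes. The difference between the genotypes did not pass for Hspa1b (interaction -1.91 ± 0.41, adjusted p = 0.758, edgeR).

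Across the 12 libraries Fos was related to 4 of the other 9 genes by Pearson correlation of log2 CPM (permutation test, 100000 resamples, two-sided, adjusted over 9 relations). The coefficients were 0.84 for Junb (adjusted p = 0.00918, permutation), 0.79 for Egr1 (adjusted p = 0.0102), 0.68 for Fosb (adjusted p = 0.0410) and 0.67 for Ier2 (adjusted p = 0.0410). Spearman's rho was 0.66 for Junb (adjusted p = 0.0724, permutation), 0.69 for Egr1 (adjusted p = 0.0724), 0.77 for Fosb (adjusted p = 0.0486) and 0.53 for Ier2 (adjusted p = 0.179). Without the 2 libraries farthest from the median of Fos, LKO-NC replicate 3 and FLOX-HFHS replicate 1, no relation passed, with r of 0.62 for Junb and 0.69 for Egr1 over 10 libraries. The coefficients were 0.58 for Fosb and 0.32 for Ier2 over the same 10 libraries, so that of Ier2 fell most among the 4. With fewer libraries a given coefficient is less likely to pass, and a lost threshold does not show that a relation is absent. Within groups, Fos deviated together with Junb (r = 0.93), Egr1 (r = 0.90) and Ier3 (r = 0.78). Each had an adjusted p of 0.0417 by an exact permutation over all arrangements within groups. These values were not computed without LKO-NC replicate 2 or 3, which held the lowest and highest Fos levels of their group. The relations of Fos with Dusp1 (r = 0.25, adjusted p = 0.493, permutation) and Klf10 (r = -0.13, adjusted p = 0.689, permutation) did not pass.

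The genes most like the mean standardised level of the 10, among 11674 with a mean of at least 1 CPM, were Trib1 (r = 0.95 over 12 libraries), Zfp36 (0.89), Dusp5 (0.88), 1700017B05Rik (0.85), Dnajb1 (0.84), Dusp6 (0.84), Arl4a (0.81) and Smo (0.81). After the group means were removed, the nearest were again Trib1 (0.95) and Zfp36 (0.91), then Zfp212 (0.90), Ptgis (0.90), Srf (0.88), Gm8893 (0.88), Thbs1 (0.88) and Smim1 (0.87). These are descriptions, since all points share the libraries, and all but Ptgis and Smim1 were highest in LKO-NC replicate 3.

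Among the other immediate early genes, 1 of 41 was higher and 5 were lower on HFHS over both genotypes (edgeR), where 11.1% of all tested genes were called, with a median log2 fold change of -0.16. Klf6, a zinc-finger factor, was the higher one. It had 13.4, 21.2 and 23.5 CPM in LKO-HFHS livers, against 6.04, 3.89 and 14.4 CPM in LKO-NC livers, and 12.8, 20.4 and 18.9 CPM in FLOX-HFHS livers, against 5.47, 5.79 and 6.66 CPM in FLOX-NC livers. Its log2 fold change was 1.40 ± 0.28 (adjusted p = 0.00757, edgeR). The lower genes included Sik1, a kinase that restrains CREB coactivators (-0.95 ± 0.21, adjusted p = 0.0124, edgeR), Errfi1, an inhibitor of EGFR (-0.76 ± 0.18, adjusted p = 0.0192, edgeR), and Klf2 (-0.94 ± 0.24, adjusted p = 0.0235, edgeR). In floxed livers alone 1 of 41 was lower (Sik1), where 2.9% of all tested genes were called. In knockout livers 0 were called by edgeR, where 3.75% of all tested genes were. There 12 of 41 had an unadjusted p under 0.05, against 18.1% of all tested genes.

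Of 31 genes upstream of the immediate early response, 1 was higher and 3 were lower on HFHS over both genotypes, a share close to the 11.1% called among all tested genes. Egfr, the EGF receptor, averaged 96.7 ± 48.2 CPM in LKO-HFHS livers, against 338 ± 32.6 CPM in LKO-NC livers (SD, n = 3 libraries each). In floxed livers Egfr averaged 65.3 ± 7.47 CPM on HFHS, against 237 ± 48.6 CPM on NC (SD, n = 3 libraries each). It passed in each genotype, at -1.81 ± 0.31 in knockout (adjusted p = 0.00650, edgeR) and -1.86 ± 0.31 in floxed livers (adjusted p = 0.00785, edgeR). Crem, a CREB relative with repressor forms, differed by -0.81 ± 0.14 over both genotypes (adjusted p = 0.00270, edgeR), and Map2k2, a kinase above ERK, by -0.61 ± 0.15 (adjusted p = 0.0183, edgeR). Rps6ka1, a kinase below ERK, was higher (0.60 ± 0.15, adjusted p = 0.0212, edgeR). Of 23 partners and negative regulators 3 were higher and 2 lower over both genotypes, beside the same 11.1%. Dusp3 (0.63 ± 0.14) and Dusp7 (0.75 ± 0.20), phosphatases of MAP kinases like Dusp1, were higher on HFHS (adjusted p = 0.0102 and 0.0279, edgeR), while Dusp1 was lower. Atf4, the transcription factor of the integrated stress response, was lower (-0.64 ± 0.13, adjusted p = 0.00789, edgeR), as was Tob2, a relative of Btg2 (-0.64 ± 0.15, adjusted p = 0.0165, edgeR).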

How the data were processed

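Per the labels, polyadenylated RNA of mouse liver was prepared with a stranded mRNA kit for the 12 libraries. The submitters' processing notes name HISAT2, StringTie, cutadapt, edgeR and FastQC, and build mm10. Roles and settings are not given in the sources used here. The authors deposited estimated counts per gene and transcript, which were whole numbers, so rounding changed none, and each gene count was the exact sum of its transcript counts. Plain counts had been assumed when edgeR was chosen, and edgeR was kept for these estimates. The authors also deposited FPKM values, used for levels between genes and in 1 alternative. Of the 10 genes, 8 had the same span in the GENCODE M21 annotation.

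Totals of 34951150 to 59205759 counts per library set the precision. Genes were filtered with filterByExpr, scaled with TMM and fitted with the robust quasi-likelihood test of edgeR 4.0.16 in R 4.3.3, with a term per group and 8 residual degrees of freedom. The 7 comparisons are both diet effects, both genotype effects, the interaction and both averages. Adjusted p is Benjamini-Hochberg over 15982 genes, called under 0.05. Relations were tested by permutation of log2 CPM (prior count 2). Alternatives were other scalings and filters, DESeq2 1.42.0, limma 3.58.1 with voom weights or on log2 of FPKM plus 0.1, a replicate block, a ribosomal RNA covariate, removal of ribosomal RNA and mitochondrial genes, and left-out libraries. Leaving out LKO-NC replicates 2 and 3 together was chosen after seeing the data.

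The genes, lists and named-gene rule were chosen with earlier results of these data known. The rule takes all 10 genes, up to 4 called genes per list by smallest p or otherwise the 2 of smallest p, and the 8 most alike by each measure; not every gene it takes is printed. Replicate libraries differed well beyond counting noise, by a chi-square averaging at least 81.8 over genes, and were each counted once. Deviations from group means of same-numbered LKO-HFHS and LKO-NC libraries correlated at 0.101 to 0.294 in all 3 pairs. Those of LKO-HFHS with FLOX-HFHS (0.0779 to 0.233) and of FLOX-HFHS with LKO-NC (0.101 to 0.241) were positive in all 3 pairs too. Each pairing with FLOX-NC was negative for the libraries numbered 2. The block is given beside the diet comparison in knockout livers where it changes a call. In simulated counts for these 15982 genes the test found 37 of 100 4-fold and 4 of 100 2-fold changes for the diet in knockout livers, and 46 and 10 in floxed livers.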

Additional observations from a re-analysis of the deposited data

How the results depend on the processing

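Of the log2 fold changes of single genes under the alternatives, 1675 kept their side of the threshold with the same sign, or with a change of sign of less than 1 SE. Another 28 newly passed and 43 no longer passed, with the same sign, and 37 that were not called changed sign by more than 1 SE. In floxed livers 0 genes were called between the diets, with 1 by DESeq2, 1 by voom weights, 2 without the 4 libraries numbered 1 and 1 without the 2 lowest TMM factors, and 0 to 2 with each library left out. Dusp1 was among them each time. The fits differed in how many of all tested genes they called, so these counts are not directly comparable between fits. DESeq2 called 7.3% of its tested genes in floxed and 8.79% in knockout livers, against 2.9% and 3.75% in the main fit. Voom weights also called more genes than the main fit in both genotypes, and the fit without LKO-NC replicate 2 called fewer. In knockout livers the 1 call became 0 without scaling, 0 on FPKM, 0 without libraries numbered 1, 2 under the 1 CPM filter, 2 with voom weights, 2 without ribosomal RNA and mitochondrial genes, 3 by DESeq2 and 3 without the 2 lowest TMM factors, and 0 to 3 with each library left out. Junb was lost with voom weights (Dusp1 and Ier2 called), and the count stayed at 1 but with another gene for the compared groups alone (Dusp1), the ribosomal RNA covariate (Ier2), and without LKO-NC replicates 2 and 3 (Egr1). Over both genotypes the 3 calls became 1 without a filter, 1 to 4 with each library left out, and 1 (Egr1) without LKO-NC replicates 2 and 3. Without libraries numbered 1, Klf10 made 1 call each for LKO-NC over FLOX-NC, for the interaction and for LKO over FLOX. In the same fit the calls over both genotypes became 2, Dusp1 as lower and Klf10 as higher on HFHS. The 4 relations with Fos became 0 without the 2 farthest libraries, 0 without those numbered 1, and 0 to 4 with each library left out. Without those numbered 1, over 8 libraries, r was 0.92 for Egr1, 0.86 for Junb and 0.77 for Ier2, no lower than over all 12, and 0.65 for Fosb. With the replicate block 1 gene was called in knockout livers (Junb) and 2 over both genotypes (Dusp1 and Ier2, not Egr1), and it changed no other count. The causes were not tested.

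Low counts limit Fosb and Ier3, and at this depth and n the test finds few 2-fold changes, so a missed threshold does not show that levels were equal.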
